A study of Chlorocebus sabaeus with 3 samples.

Results

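The genes examined here encode the TGF-beta and bone morphogenetic protein (BMP) signaling system: its ligands, receptors, extracellular antagonists, and intracellular effectors. A list of 42 genes was drawn up by gene name. Of these, 41 had a probe set named for a single gene symbol, out of 19775 such genes on the array, and BMPR1A was not analysed here. Where a gene had several, the one brightest by mean log2 intensity was used. Limbus, cornea, and conjunctiva of the vervet monkey (Chlorocebus sabaeus) were compared with human Affymetrix U133 Plus arrays, 1 array per tissue and 3 in all. The study describes the tissues as taken from the same eye, from animals in the third or the fourth year of life, and no treatment is named for any group. The limbus sample was the narrow rim of epithelium around the cornea, the cornea sample was the trephined centre, and both held part of the stroma beneath, while the conjunctiva sample held the underlying Tenon layer. Each value is therefore a mixture of epithelial, stromal, vascular, and immune cells, and fewer cells of a type cannot be told apart from less RNA per cell.

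TGF-beta family ligands are secreted dimers that bring together type I and type II receptor kinases. The TGF-beta and activin branch then signals through SMAD2 and SMAD3, and the BMP branch through SMAD1, SMAD5, and SMAD9, while SMAD6 and SMAD7 block the receptors. Secreted antagonists trap the ligands, and latent TGF-beta is held in the matrix by binding proteins. On the ocular surface the pathway is known for stromal scarring, for the restraint of epithelial growth, and, through TGF-beta2 in the aqueous humor, for the immune quiet of the anterior eye.

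Deposited values are RMA intensities on a linear scale. Over all probe sets the median was 49.0 in limbus, 48.8 in cornea, and 50.7 in conjunctiva. GAPDH control probe sets at the 3′ end exceeded those at the 5′ end, a measure of RNA length, by a ratio of 3.12 in limbus, 4.58 in cornea, and 3.83 in conjunctiva. For ACTB the ratio was 11.8, 11.2, and 10.3, so that the tissue with the highest ratio differed between these controls. Markers were read beside the tissue labels. Several of them had been reported by the study from these same arrays, so they do not check the labels independently. All 7 corneal epithelial markers were highest in the cornea and all 7 conjunctival and goblet cell markers were highest in the conjunctiva, while the 5 melanocyte markers measured, cells that the pigmented limbus holds, were highest in the limbus. With a single array per tissue the differences have no replicate check and were not tested. Other probe sets of a gene are the only internal check. Among the 3225 genes with at least 2 probe sets at a geometric mean of at least 100, the log2 differences of the brightest pair of probe sets disagreed by a median of 0.33 for limbus against cornea, 0.31 for limbus against conjunctiva, and 0.36 for cornea against conjunctiva, and the 90th percentiles were 0.89, 0.84, and 1.03. Levels of different genes are not compared, since probe sets bind with different strength.

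At least 1 value of 100 was reached by 31 of the 41 genes (75.6%), beside 55.6% of all genes, and 17 (41.5%) were at least 2-fold apart between some pair of tissues, beside 13.9%. Most of these differences lay between the cornea and another tissue. In the cornea, 12 of the 41 genes (29.3%) were at least 2-fold lower than in the conjunctiva, against 5.68% of all genes, and 4 (9.76%) were at least 2-fold higher, against 5.31%. The 12 were CHRDL1, TGFBR2, ID4, FST, ID2, TGFBR3, SMAD7, BMP2, LTBP3, INHBB, FSTL1, and INHBA, and the 4 were TGFB2, SMAD9, BMPR1B, and TGFBR1. They span all of the roles, from ligands to effectors.

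In the limbus, 9 genes (22.0%) were at least 2-fold higher than in the cornea, against 4.06% of all genes, and TGFB2 and SMAD9, 2 genes (4.88%), were at least 2-fold lower, against 2.51%. All 9 were also among the 12 that were lower in the cornea than in the conjunctiva. Over all genes, 803 passed 2-fold for limbus over cornea. In 580 of these the cornea was 2-fold or more below the conjunctiva too. Both comparisons share the single cornea array, so much of such overlap is not particular to the signaling genes. The limbus and the conjunctiva were closer. In the limbus only TGFB2 (2.44%) was at least 2-fold higher than in the conjunctiva, against 2.62% of all genes, and CHRDL1, ID4, and TGFB1 (7.32%) were at least 2-fold lower, against 2.31%. That split of 1 higher and 3 lower became 2 and 3 when each array was divided by its median or when the arrays were quantile normalized together, and 8 and 1 of the 41 genes when each array was divided by its hybridization controls. That last scaling moved the shares of all genes as well, to 13.1% higher and 0.58% lower.

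**Figure D1:**
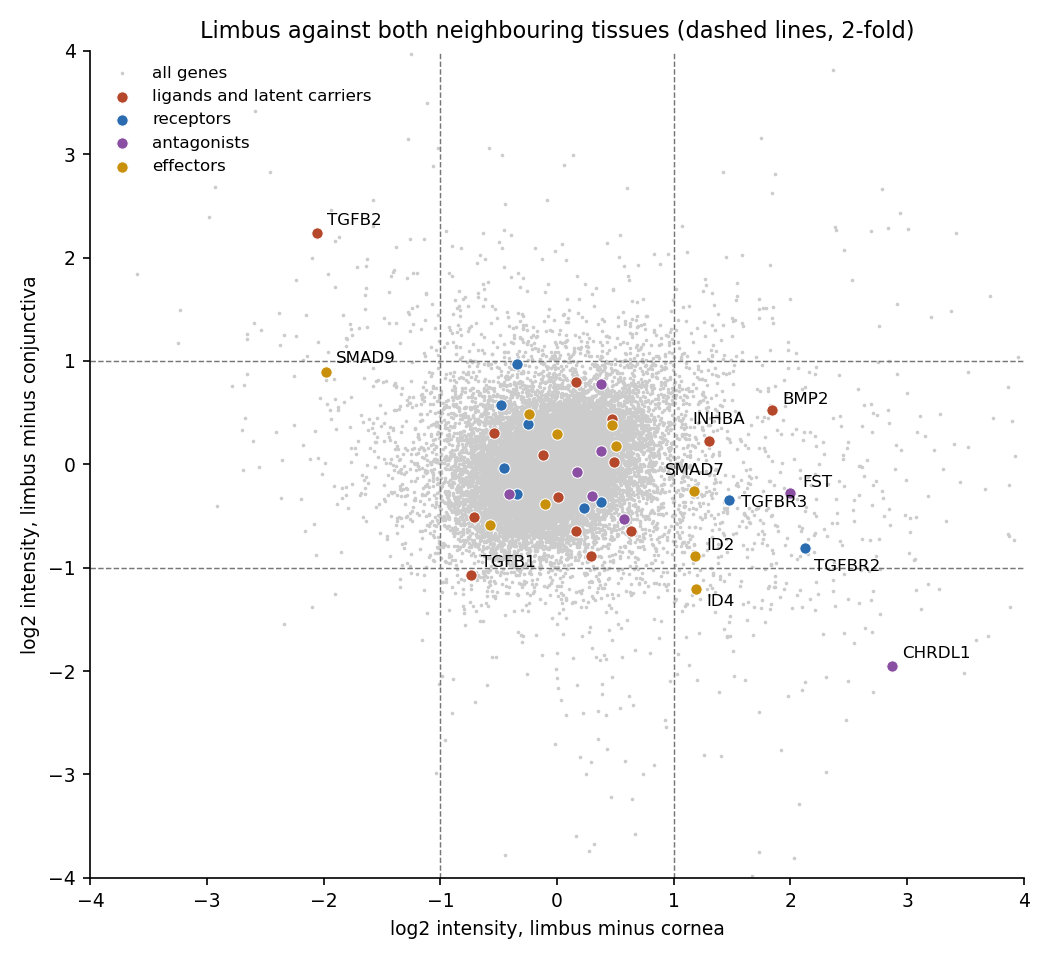
Difference in log2 intensity as limbus minus cornea (horizontal axis) and limbus minus conjunctiva (vertical axis) for all genes (grey) and for the 41 signaling genes (coloured by role), 1 array per tissue; dashed lines mark 2-fold, and 22 genes lie outside the axes. TGFB2 and SMAD9 lie to the left, CHRDL1 to the lower right, and 9 signaling genes lie beyond the right dashed line.

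Among brighter genes, those with a geometric mean of at least 100, the signaling genes numbered 27. The cornea was at least 2-fold below the conjunctiva in 9 of them (33.3%), against 6.93% of all such genes, and at least 2-fold above it in 3 (11.1%), against 8.19%. The limbus was at least 2-fold above the cornea in 7 (25.9%), against 5.22%, and at least 2-fold below it in 2 (7.41%), against 3.65%. Compared with the conjunctiva, it was higher in 1 (3.70%), against 3.38%, and lower in 2 (7.41%), against 2.6%. The higher shares in the cornea comparisons were thus present at bright probe sets too.

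Read against each of the other tissues, the limbus had no signaling gene that was at least 2-fold higher (0.475% of all genes were) or at least 2-fold lower (0.0708%). In the cornea, TGFB2 and SMAD9 exceeded each other tissue by at least 2-fold (4.88%, against 1.89% of all genes). BMP2, CHRDL1, FST, ID2, ID4, INHBA, SMAD7, TGFBR2, and TGFBR3 were at least 2-fold lower there (22.0%, against 2.93%). CHRDL1 and ID4 were at least 2-fold higher in the conjunctiva (4.88%, against 1.68%), and TGFB2 was lower (2.44%, against 1.55%). The cornea and the conjunctiva were at least 2-fold apart in 16 genes, and the limbus lay between them in 14 (87.5%), close to the share of 85.6% over all genes. BMP2 and INHBA, whose limbus value was above both others, were the exceptions.

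The median log2 difference over the 41 genes was 0.23 in the limbus against the cornea, where all genes had -0.045. It was -0.26 in the limbus against the conjunctiva, beside -0.035, and -0.27 in the cornea against the conjunctiva, beside 0.0072. The cornea had the lowest value for 23 of the 41 genes (56.1%), beside 33.2% of all genes. When each array was divided by its hybridization controls, the cornea was lowest for 30 genes (73.2%), beside 69.5% of all genes, the median in the limbus against the conjunctiva turned to 0.30, and the median of all genes moved to 0.76, 0.52, and -0.24 in these comparisons.

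**Figure D2:**
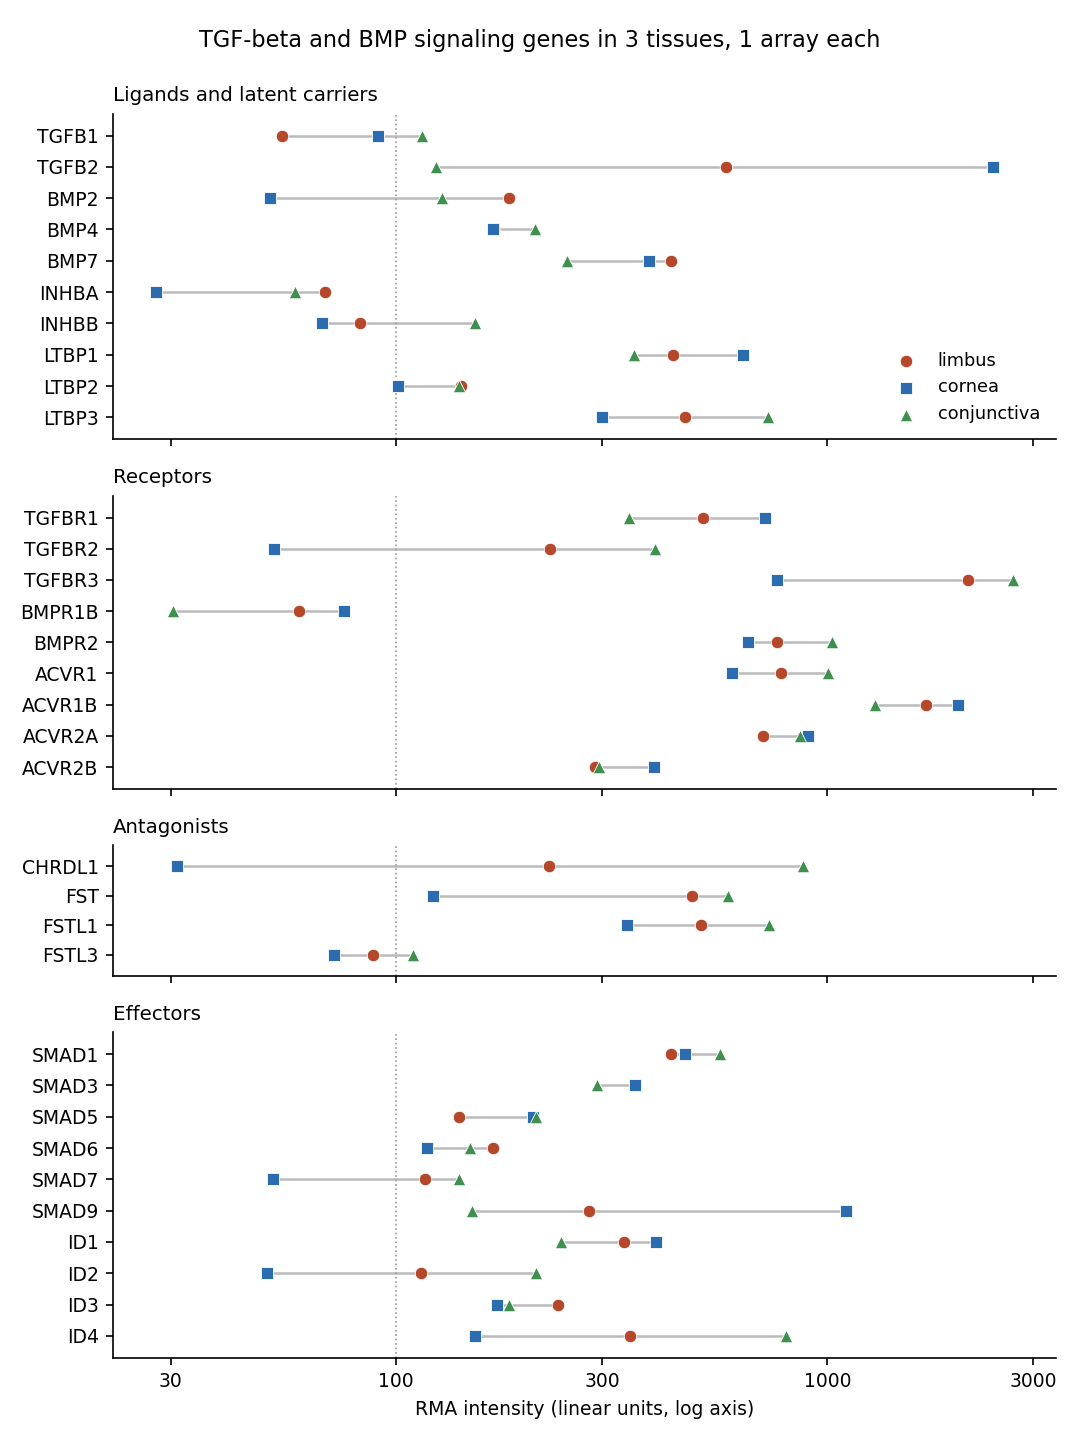
RMA intensity (linear units on a log axis) of the 33 signaling genes with a value of at least 100 or a 2-fold difference, with circles for limbus, squares for cornea, and triangles for conjunctiva (1 array each); the dotted line marks 100. Cornea values lie far to the right for TGFB2 and SMAD9 and far to the left for CHRDL1, TGFBR2, and FST.

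Among the ligands, TGFB2 had the widest differences. TGFB2, the TGF-beta isoform of the aqueous humor, had a value of 582 in limbus, 2427 in cornea, and 123 in conjunctiva. The limbus was 4.17-fold below the cornea and 4.72-fold above the conjunctiva, and the cornea was 19.7-fold above the conjunctiva. The 3 tissues thus formed a gradient from the centre outward. The other isoforms had smaller differences. TGFB1, the main isoform of wound and immune cells, had a value of 54.4 in limbus, 90.9 in cornea, and 115 in conjunctiva, so that the limbus was 2.11-fold below the conjunctiva. On the other TGFB1 probe set, with 78.9 in limbus, 95.0 in cornea, and 69.3 in conjunctiva, the order was that of TGFB2, with every ratio under 2. TGFB3, at 72.5, 79.0, and 68.2, had that order too, with its largest ratio at 1.16.

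Among the BMP ligands, BMP2, a BMP that also drives bone formation, was the 1 gene of its kind with a 2-fold difference on the probe set used. BMP2 had a value of 183 in limbus, 51.1 in cornea, and 127 in conjunctiva. Limbus was 3.58-fold above cornea and 1.43-fold above the conjunctiva, and the cornea was 2.50-fold below the conjunctiva. The limbus also led on the second BMP2 probe set, at 85.3 against 49.2 in cornea and 50.8 in conjunctiva, where the other tissues were nearly equal. BMP4, a close relative of BMP2, had 169 in limbus, 167 in cornea, and 210.1 in conjunctiva. BMP7, a BMP needed for eye development, had 433 in limbus, 386 in cornea, and 249 in conjunctiva. The order of the limbus and the cornea in BMP7 turned on the next brightest probe set, where the values were 212, 328, and 119. There the cornea was 2.76-fold above the conjunctiva. A further BMP7 probe set, at 112, 153, and 151, was highest in the cornea as well. BMP3, BMP5, and BMP6 stayed under 100 in every tissue.

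INHBA and INHBB encode the beta subunits of the activins. INHBA had a value of 68.3 in limbus, 27.7 in cornea, and 58.3 in conjunctiva, which makes the limbus 2.46-fold above the cornea and the cornea 2.10-fold below the conjunctiva. A dimmer INHBA probe set had the same order, with 38.2, 13.0, and 23.5, while the dimmest was highest in the cornea, with 16.6, 18.2, and 14.8. INHBB was highest in the conjunctiva, with 82.5 in limbus, 67.3 in cornea, and 152 in conjunctiva, and the cornea was 2.26-fold below the conjunctiva. On the probe sets used, both activin subunits were thus lowest in the cornea, and every INHBA value was under 100.

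The latent TGF-beta binding proteins, which hold inactive TGF-beta in the matrix, split by gene. LTBP1 had a value of 438 in limbus, 638 in cornea, and 355 in conjunctiva. LTBP3 ran the other way, with 467 in limbus, 300.5 in cornea, and 728 in conjunctiva, so that the cornea was 2.42-fold below the conjunctiva. On a second LTBP3 probe set, of a type that can also bind similar transcripts, the cornea was 1.60-fold below the conjunctiva. On the third the cornea was 1.58-fold above the conjunctiva, at 121 in cornea and 76.7 in conjunctiva. LTBP2, an elastic microfibril protein of the same family, had 142 in limbus, 101 in cornea, and 139.6 in conjunctiva. Its other probe set was highest in the cornea, at 79.4 in limbus, 105 in cornea, and 69.6 in conjunctiva. Over the 14 ligands and carriers the median log2 difference was 0.16 in the limbus against the cornea, 0.054 in the limbus against the conjunctiva, and -0.33 in the cornea against the conjunctiva.

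The receptors of TGF-beta itself moved apart. TGFBR1, the type I kinase, had a value of 513 in limbus, 715 in cornea, and 346 in conjunctiva, and the cornea was 2.07-fold above the conjunctiva. This difference was just past 2-fold, and by the median over the TGFBR1 probe sets it was -0.011 on the log2 scale. TGFBR2, the type II receptor that binds the ligand, had 227 in limbus, 52.0 in cornea, and 397 in conjunctiva. Limbus was 4.37-fold above cornea and 1.75-fold below the conjunctiva, and the cornea was 7.64-fold below the conjunctiva. The other TGFBR2 probe set was dim, at 32.8 in limbus, 34.0 in cornea, and 47.1 in conjunctiva. It was also highest in the conjunctiva, but the limbus and the cornea were nearly equal on it. TGFBR3, or betaglycan, a co-receptor that presents TGF-beta2 to the signaling receptors, had 2118 in limbus, 764 in cornea, and 2696 in conjunctiva. Limbus was 2.77-fold above cornea, and the cornea was 3.53-fold below the conjunctiva. On the probe sets used, the cornea thus had the highest TGFB2 and TGFBR1 values and the lowest TGFBR2 and TGFBR3 values.

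Of the BMP and activin receptors, BMPR1B alone reached a 2-fold difference on the probe set used. BMPR1B, a type I BMP receptor, had a value of 59.5 in limbus, 75.6 in cornea, and 30.3 in conjunctiva, and the cornea was 2.50-fold above the conjunctiva at values under 100. BMPR2, the type II BMP receptor, had 764 in limbus, 653 in cornea, and 1023 in conjunctiva. ACVR1, a type I receptor of BMPs, had 780.0 in limbus, 599.7 in cornea, and 1002 in conjunctiva. Both were lowest in the cornea, by less than 2-fold. ACVR1B, the type I receptor of activin, had 1690 in limbus, 2008 in cornea, and 1291 in conjunctiva. The type II activin receptor ACVR2A had 707 in limbus, 899 in cornea, and 865 in conjunctiva, and ACVR2B had 289 in limbus, 397 in cornea, and 295 in conjunctiva. The second ACVR2A probe set showed a larger difference, at 293 in limbus, 682 in cornea, and 303 in conjunctiva. Of the 9 receptors measured, 4 (44.4%) were at least 2-fold apart between some pair of tissues, beside 13.9% of all genes. The highest value was in cornea for 5 (55.6%, beside 38.4% of all genes) and in conjunctiva for 4 (44.4%, beside 36.7%). It was in limbus for 0, beside 24.9% of all genes.

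Among the 41 genes, the widest range was that of an antagonist. CHRDL1, a secreted BMP antagonist whose loss causes an enlarged cornea in humans, had a value of 227 in limbus, 31.0 in cornea, and 876 in conjunctiva. Limbus was 7.32-fold above cornea and 3.86-fold below the conjunctiva, and the cornea was 28.3-fold below the conjunctiva. CHRDL1 had 1 named probe set, so no other value stands beside it. FST, or follistatin, which traps activin, had 484 in limbus, 121 in cornea, and 587 in conjunctiva. Limbus was 3.98-fold above cornea, and the cornea was 4.83-fold below the conjunctiva. On the other FST probe sets the limbus was 8.96-fold and 3.97-fold above the cornea, but it was also above the conjunctiva, at 238 against 202 and at 161 against 70.8. All FST probe sets were lowest in the cornea.

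FSTL1, a secreted follistatin-like glycoprotein of mesenchymal cells, had a value of 509 in limbus, 342 in cornea, and 732 in conjunctiva, and the cornea was 2.14-fold below the conjunctiva. FSTL3, which binds activin as follistatin does, had 88.2 in limbus, 71.8 in cornea, and 109 in conjunctiva. The order of the tissues was the same in CHRDL1, FSTL1, FSTL3, and the brightest FST probe set. The decoy receptor BAMBI and the BMP antagonists GREM1, CHRD, and NOG stayed under 100 in every tissue. Together with TGFB3, BMP3, BMP5, and BMP6 they made up the 8 genes with neither a value of 100 nor a 2-fold difference. Their values ran from 15.6 to 87.6, and their largest ratio between tissues was 1.75, in BMP3. Over the 8 antagonists the median log2 difference was 0.38 in the limbus against the cornea, -0.29 in the limbus against the conjunctiva, and -0.43 in the cornea against the conjunctiva.

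Of the effectors, SMAD9 was the only SMAD of the receptor-regulated kind with a 2-fold difference. SMAD9, which carries BMP signals, had a value of 279.6 in limbus, 1105 in cornea, and 150.2 in conjunctiva. The limbus was 3.95-fold below the cornea and 1.86-fold above the conjunctiva, and the cornea was 7.35-fold above the conjunctiva. Its other probe set was dim and had another order, with 32.6 in limbus, 26.5 in cornea, and 45.7 in conjunctiva. SMAD1 and SMAD5, which act in the same branch, did not share the corneal excess. SMAD1 had 433 in limbus, 466 in cornea, and 564 in conjunctiva. SMAD5 had 139.7 in limbus, 208 in cornea, and 210.5 in conjunctiva, while another SMAD5 probe set was highest in the limbus, with 156, 119, and 124. SMAD3, of the TGF-beta and activin branch, had 357 in limbus, 358 in cornea, and 292 in conjunctiva, and its next probe set was highest in the limbus, with 137, 112, and 101.

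The inhibitory SMADs are induced by the pathway and shut it down. SMAD7, which blocks TGF-beta and BMP receptors, had a value of 117 in limbus, 51.7 in cornea, and 139.6 in conjunctiva. Limbus was 2.25-fold above cornea, and the cornea was 2.70-fold below the conjunctiva. SMAD6, which acts mainly on the BMP branch, had 167 in limbus, 118 in cornea, and 148 in conjunctiva. Both inhibitory SMADs were lowest in the cornea, SMAD6 by less than 2-fold.

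The ID genes encode helix-loop-helix proteins that block differentiation factors and are transcribed in response to BMPs. They did not move together. ID1 was highest in the cornea, with 338 in limbus, 399.7 in cornea, and 242 in conjunctiva. ID2 was lowest there, with 114 in limbus, 50.2 in cornea, and 211 in conjunctiva. The ID2 limbus value was 2.28-fold above the cornea, and the cornea was 4.20-fold below the conjunctiva, and the second ID2 probe set gave 2.52-fold and 4.14-fold for the same pairs. The ID2 probe set used is of a type that can also bind similar transcripts. ID3 was highest in the limbus, with 238 in limbus, 172 in cornea, and 182 in conjunctiva. ID4 had 348 in limbus, 152 in cornea, and 803 in conjunctiva. Its limbus value was 2.29-fold above the cornea and 2.31-fold below the conjunctiva, and the cornea was 5.28-fold below the conjunctiva. ID4 depended on the probe set: on the next brightest one the values were 177 in limbus, 117 in cornea, and 136 in conjunctiva. That ID4 probe set, like the ID2 one used, is of a type that can also bind similar transcripts. Taken as the median of its 5 probe sets, ID4 in the limbus was above the conjunctiva by 0.12 on the log2 scale. Over the 10 effectors the median log2 difference was 0.24 in the limbus against the cornea, -0.042 in the limbus against the conjunctiva, and -0.18 in the cornea against the conjunctiva.

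**Figure D3:**
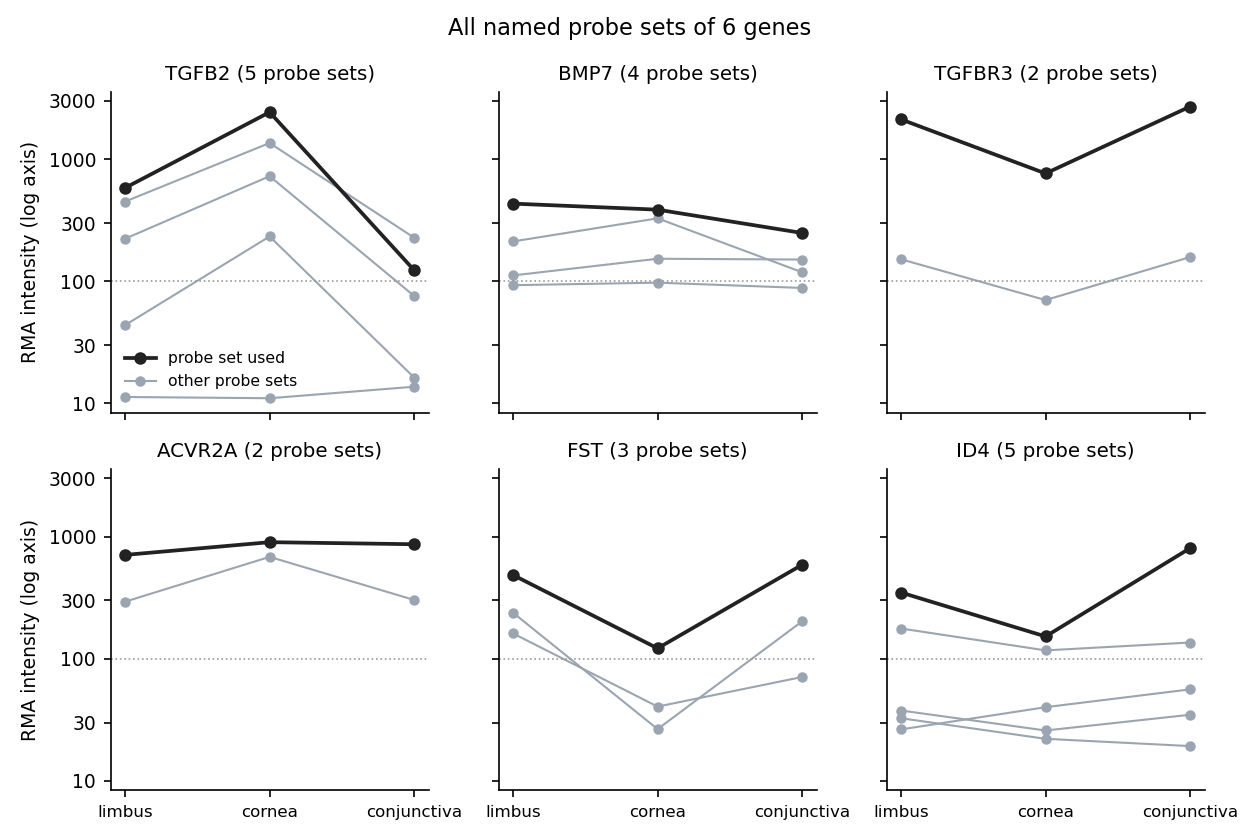
RMA intensity (log axis) on every named probe set of 6 signaling genes by tissue (limbus, cornea, conjunctiva), 1 array per tissue; the black line is the probe set used for the gene, grey lines are its other probe sets, and the dotted line marks 100. In TGFB2, 4 of 5 probe sets peak in the cornea, and in FST and TGFBR3 every probe set is lowest there.

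The other probe sets repeated some of these differences. The 41 genes had 103 named probe sets, and 30 genes had more than 1. Of the 62 probe sets not used for a gene, 20 reached a value of 100, and in 15 of the 20 the lowest tissue was that of the probe set used, while the highest tissue was the same in 9. Among the 17 genes at least 2-fold apart between any pair of tissues, 6 had another probe set that reached 100. On all such probe sets of TGFB2, TGFBR3, and ID2, and on 1 of 2 in FST, the largest difference of the gene was again at least 2-fold in the same direction, while LTBP3 and ID4 had none. For TGFB2, the 3 further probe sets that reached 100 put the cornea 5.96-fold, 9.56-fold, and 14.3-fold above the conjunctiva, and the fifth, at values from 11.0 to 13.7, showed no peak. CHRDL1, INHBB, and SMAD7 had 1 named probe set, and the other 8 genes had further probe sets under 100 only. BMPR2 and ACVR2B each had a dimmer probe set that was highest in the limbus, at 228 in limbus, 163 in cornea, and 220.2 in conjunctiva for BMPR2 and at 157, 124, and 116 for ACVR2B.

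Markers of several cell types differed between the samples in the same directions. All 7 vascular endothelial markers were lowest in the cornea, and their summed intensity was 1480.0 in limbus, 557 in cornea, and 2250.1 in conjunctiva. Such sums mostly follow the brightest probe sets of a list, so they are given with counts of markers. All 7 fibroblast markers were lowest in the cornea too, with sums of 6780.4, 4567, and 15207 in the same order, as were all 6 leukocyte markers, with sums of 1091, 537, and 2261. Of the 7 smooth muscle and pericyte markers, 4 were lowest in the cornea and 5 highest in the conjunctiva, with sums of 1631, 599, and 4375. All 7 conjunctival and goblet cell markers were highest in the conjunctiva and 5 were lowest in the cornea, with sums of 4544, 2380, and 16021. These are the directions of CHRDL1, TGFBR2, TGFBR3, FST, FSTL1, ID2, ID4, and SMAD7. The corneal epithelial markers, with sums of 23400 in limbus, 51740 in cornea, and 10375 in conjunctiva, and 5 of 6 keratocyte markers were highest in the cornea, which is the direction of TGFB2, SMAD9, and TGFBR1. All 5 melanocyte markers measured were highest in the limbus and lowest in the cornea, with sums of 1851, 457, and 825, which is the direction of BMP2 and INHBA. The part of these cell types in the differences of the signaling genes was not tested.

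**Figure D4:**
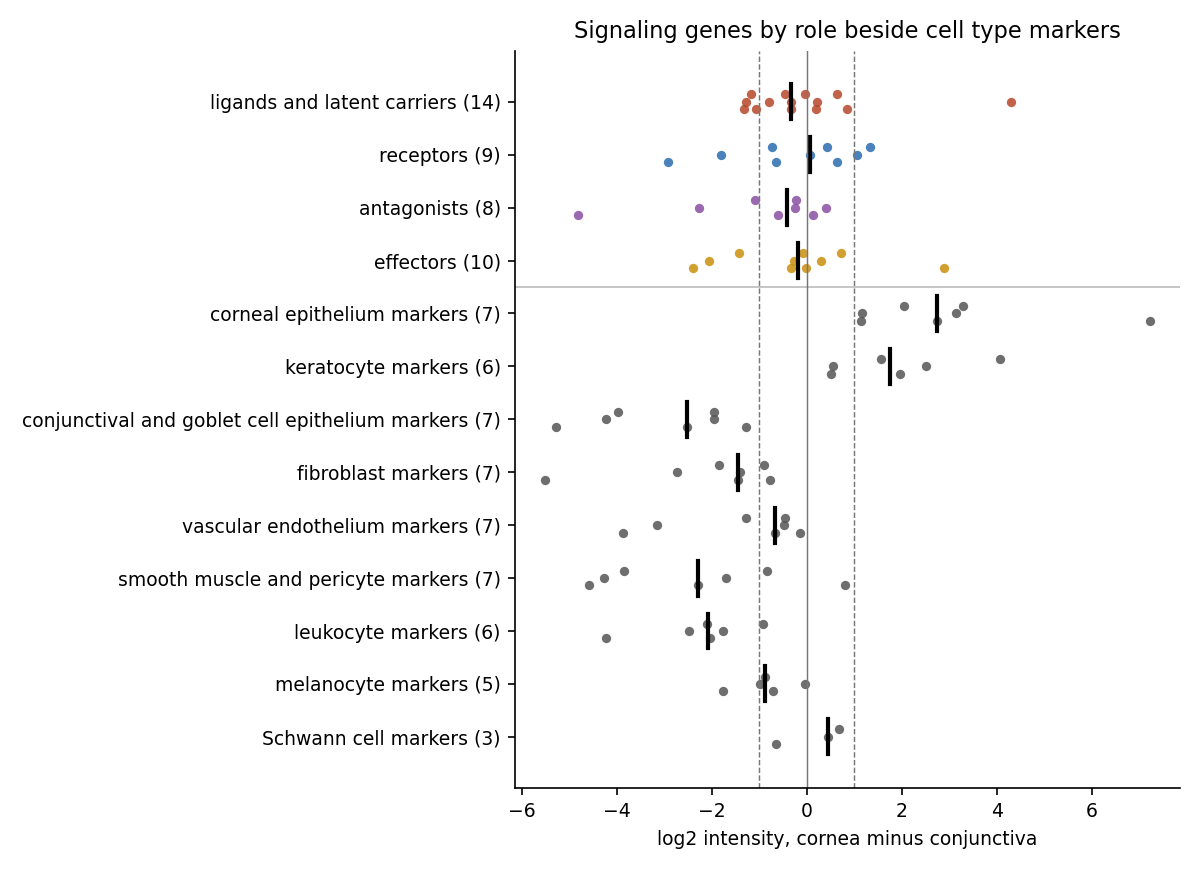
Difference in log2 intensity between the cornea and the conjunctiva for the signaling genes by role (coloured) and for cell type markers (grey), 1 point per gene and 1 array per tissue; the number of genes is in parentheses, black bars are medians, and dashed lines mark 2-fold. The role medians lie between -0.43 and 0.056, while the medians of the 9 marker lists run from -2.53 in conjunctival and goblet cell epithelium to 2.73 in corneal epithelium.

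Other genes of the pathway, listed for their role, were read in the same way. Of 59 genes in lists of further ligands and their processing, receptors, antagonists, and effectors, 54 were measured and 12 (22.2%) were at least 2-fold apart between some pair of tissues, beside 13.9% of all genes. In the limbus 4 (7.41%, against 4.06% of all genes) were at least 2-fold higher than in the cornea and 1 (1.85%, against 2.51%) was lower. Compared with the conjunctiva, 3 (5.56%, against 2.62%) were higher in the limbus and 1 (1.85%, against 2.31%) was lower. In the cornea 3 (5.56%, against 5.31%) were higher than in the conjunctiva, which is near the share over all genes, and 6 (11.1%, against 5.68%) were lower.

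Of these, 11 had a 2-fold difference and a value of at least 100. PMEPA1, a TGF-beta-induced membrane protein that sequesters SMADs, had a value of 265 in limbus, 45.2 in cornea, and 336 in conjunctiva. Limbus was 5.85-fold above cornea, and the cornea was 7.43-fold below the conjunctiva, with 4.58-fold and 5.44-fold on the second PMEPA1 probe set. On the third the differences were under 2-fold, at 115 in limbus, 83.6 in cornea, and 97.1 in conjunctiva. FBN1, the fibrillin of the microfibrils that anchor latent TGF-beta, had 697.5 in limbus, 151 in cornea, and 1118 in conjunctiva. On a second FBN1 probe set that just reached 100 the conjunctiva was lowest, at 101 in limbus, 88.7 in cornea, and 63.0 in conjunctiva. On the probe sets used, PMEPA1 and FBN1 had the same order of tissues as TGFBR2. SMURF1, a ubiquitin ligase that degrades SMADs and receptors, was highest in the limbus, with 439.6 in limbus, 125 in cornea, and 263 in conjunctiva. Its other probe sets stayed under 100, and most of them were lowest in the limbus. The next brightest had 63.8 in limbus, 81.2 in cornea, and 92.1 in conjunctiva. Another was highest in the limbus, with 72.3, 60.9, and 46.0. SKIL, a repressor of SMAD transcription, had 163 in limbus, 293 in cornea, and 358 in conjunctiva.

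Among the ligand-processing genes, the integrin subunit ITGB8, which releases TGF-beta from its latent form, had a value of 215 in limbus, 263 in cornea, and 94.4 in conjunctiva. THBS1, a matricellular activator of TGF-beta, had 164 in limbus, 166 in cornea, and 77.2 in conjunctiva. Both were at least 2-fold lower in the conjunctiva than in each other tissue. LRRC32, which docks latent TGF-beta on the cell surface, had 121 in limbus, 74.7 in cornea, and 161 in conjunctiva. The activin subunit INHBC was highest in the cornea, with 63.7 in limbus, 169.7 in cornea, and 77.2 in conjunctiva. Its other probe set was dim and lowest in the cornea, with 28.4 in limbus, 26.5 in cornea, and 48.4 in conjunctiva.

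The BMP co-receptors RGMA and RGMB were both lower in the cornea than in the limbus. RGMA had a value of 625 in limbus, 441.5 in cornea, and 308 in conjunctiva. RGMB had 432 in limbus, 260.5 in cornea, and 584 in conjunctiva. The place of the conjunctiva in RGMB depended on the probe set, since another had its highest value in the limbus, as RGMA did, with 138, 66.0, and 96.4. The BMP antagonist SOSTDC1 had 91.3 in limbus, 73.1 in cornea, and 154 in conjunctiva, the order of CHRDL1.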

How the data were processed

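Total RNA of the 3 tissues was amplified in a pair of rounds, labeled, and hybridized by the authors, who normalized each array by RMA (justRMA; version not given in the sources used here) in combination with an unchanging set of reference arrays. The authors deposited RMA intensities in linear units for 54675 probe sets, none missing, in a table with 0 columns from other samples. With 1 array per tissue, the number of arrays limits the precision. Because arrays were not normalized with each other, differences of scale can remain. An array annotation gave 41097 probe sets 1 gene symbol, 1801 several, and 11777 are not named here; only the first were used, which left 19775 genes. Human-designed probes can bind monkey transcripts unevenly, which affects levels more than ratios within a probe set.

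Ratios and log2 differences were computed with Python 3.11.15, numpy 2.4.6, and pandas 2.3.3, and plots were drawn with matplotlib 3.10.9. A difference was counted at a linear ratio of at least 2 in either direction, with no filter on level. The study used this ratio too, but for genes higher in a tissue than in both others. Only the counts of genes higher than in each other tissue are of that kind. The scripts' counts were tested on simulated arrays. The genes, roles, and lists were chosen with earlier results of these data known. Genes given with values are signaling genes with a value of at least 100 or a 2-fold difference, and other pathway genes with both. Alternatives varied the fold threshold (1.5 and 3), the choice of probe set, array scaling, an added pseudocount of 32, and a minimum of 100.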

Additional observations from a re-analysis of the deposited data

How the results depend on the processing

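With 1 array per tissue, stability could be read only across settings, and values under 100 make ratios uncertain. The counts below are of genes at least 2-fold, or past the stated threshold, higher and lower, each with the share of all genes under the same setting. A count is listed first where it changed by more than a factor of 1.5 from the main setting. In the limbus against the cornea (9 higher, 2 lower), a threshold of 1.5 gave 4 lower (10.4%), a threshold of 3 gave 4 higher (1.74%), the hybridization controls gave 21 higher (27.9%), and the median over probe sets gave 1 lower (1.40%). In the limbus against the conjunctiva (1 higher, 3 lower), a threshold of 1.5 gave 5 (8.38%) and 9 (9.11%), a threshold of 3 gave 1 lower (0.57%), division by the array median gave 2 higher (2.96%), quantile normalization 2 higher (2.72%), the hybridization controls gave 8 (13.1%) and 1 (0.58%), and the median over probe sets gave 1 lower (1.30%). In the cornea against the conjunctiva (4 higher, 12 lower), a threshold of 1.5 gave 8 higher (13.2%), a threshold of 3 gave 2 (1.82%) and 6 (2.86%), a pseudocount of 32 gave 2 higher (3.60%), and the median over probe sets gave 7 lower (3.69%). Among smaller changes, the pseudocount gave 6 higher (2.43%) in limbus against cornea and 9 lower (3.84%) in cornea against conjunctiva. With a minimum of 100 for the higher value, limbus against cornea gave 8 higher (5.91%) and 2 lower (4.04%) of 28 genes. Limbus against conjunctiva then gave 1 (3.84%) and 3 (3.42%) of 31. Cornea against conjunctiva gave 3 (8.70%) and 11 (8.30%) of 31. The median log2 difference moved to 1.03 in the limbus against the cornea and to -0.52 in the cornea against the conjunctiva with the hybridization controls. In the limbus against the conjunctiva it was -0.11 after quantile normalization, 0.30 with the hybridization controls, and 0.057 by the median over probe sets. The control probe sets averaged 1476 in limbus, 2574 in cornea, and 2169 in conjunctiva, so this scaling raises limbus values relative to the others. Of the 31 differences of at least 2-fold in genes given with values, 9 fell under 2-fold with the pseudocount, 0 on division by the array median, 1 after quantile normalization, 3 with the hybridization controls, and 8 by the median over probe sets. By the median over probe sets, a pair of differences turned sign: ID4 in the limbus against the conjunctiva (0.12) and TGFBR1 in the cornea against the conjunctiva (-0.011). The cause was not tested. No paired analysis was possible because each tissue had 1 array.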

Other observations

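Matrix and growth genes that TGF-beta is known to raise in cultured cells formed a further list. Of 17 genes, 15 were measured and 12 (80.0%) were at least 2-fold apart between some pair of tissues, beside 13.9% of all genes. In the limbus 4 (26.7%, against 4.06% of all genes) were at least 2-fold higher than in the cornea and 2 (13.3%, against 2.51%) were lower. Compared with the conjunctiva, 3 (20%, against 2.62%) were higher in the limbus and 7 (46.7%, against 2.31%) were lower. In the cornea 3 (20%, against 5.31%) were higher than in the conjunctiva and 7 (46.7%, against 5.68%) were lower. The list did not move in 1 direction.

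TGFBI, a corneal matrix protein named for its induction by TGF-beta, had a value of 10399 in limbus, 21896 in cornea, and 3549 in conjunctiva, the order of TGFB2. SPARC, a matricellular glycoprotein, also peaked in the cornea, with 1441 in limbus, 4006 in cornea, and 1847 in conjunctiva. The fibrillar collagen COL3A1 ran the other way, with 519 in limbus, 46.3 in cornea, and 2105 in conjunctiva, and the contractile genes ACTA2 (431 in limbus, 76.4 in cornea, and 1847 in conjunctiva) and TAGLN (265, 45.5, and 878) had the same order. TAGLN depended on the probe set, since another that reached 100 was highest in the cornea, with 164 in limbus, 218 in cornea, and 176 in conjunctiva. POSTN, a matrix protein of connective tissue, was highest in the limbus, with 116 in limbus, 30.1 in cornea, and 65.7 in conjunctiva. SNAI2 and CDKN1A were at least 2-fold lower in the conjunctiva than in the limbus, with 404 in limbus, 376 in cornea, and 143 in conjunctiva for SNAI2 and 442, 329.7, and 187 for CDKN1A. COL1A1, COL1A2, FN1, and TIMP1 were highest in the conjunctiva. COL3A1, COL1A1, COL1A2, ACTA2, and TAGLN are also fibroblast or smooth muscle markers, and the part of tissue content in their differences was not tested.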
